A study of Homo sapiens with 124 samples.

Results

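A chosen set of 8 genes of striated muscle was followed at the nuclear lamina of single leukaemia cells. They are TTN, NEB, ACTN2, RYR2, RYR3, MYH1, MYH7 and SGCD, which serve contraction, calcium release or the muscle membrane. The rule that defines them uses names and positions and no contact values, although the members were chosen with earlier results of these data known. They lie at 8 places on chromosomes 1, 2, 5, 14, 15 and 17. Each gene was read as the 100 kb bins of the hg19 map that overlap its interval, called the body here, with the bins of the 1 Mb on either side as flanks. The 8 bodies hold 32 of the 26426 usable bins of the genome, and bodies and flanks together hold 171.

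The cells were KBM7, a human leukaemia line with a near-haploid genome, and all belong to a single group, labelled haploid and clone 14, so that the results describe 1 clone of 1 line. Every cell carried Dam, a bacterial methyltransferase of adenines in GATC motifs, fused to LaminB1, which builds the lamina under the nuclear envelope. The fusion was stabilised with 0.5 nM Shield1 for 15 h before sorting, and the sort took the smallest 2% of cells that carried both Fucci cell cycle markers. Of 124 labelled cells, 118 have a column in the table and were analysed, with 28372 to 385661 recovered reads per cell and a median of 135782. The labels name no cultures, batches or donors, so the cells make up 1 sample of 1 condition. No p-value is given for this reason, SDs measure the spread between cells, and exact 95% intervals cover the counting of cells only.

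Contact of a bin in a cell means a deposited ratio of observed to expected reads of at least 1. Contact frequency gives, per bin, how many of the 118 cells met this, in percent, and the share of a body is the percentage of its bins in contact in a cell. In 14 cells a ratio of 1 stood for under 3 reads in the median bin, and single reads decide contacts there. The 28 cells numbered 96 to 124 had a larger contact share of the whole genome than the 90 cells numbered 1 to 94, with means of 36.5 and 31.9% and median reads of 161506 and 133746. This split goes by sample number and was seen in the data, since the labels give no such groups. Values of both sets are given beside several results. Cells with fewer than 80890 reads occurred only among cells 1 to 94, and the sets were not matched for depth in these comparisons.

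Lamina-associated domains are stretches of mostly gene-poor chromatin that touch the lamina in many cells, and genes inside them are often silent. In blood cells the genes of striated muscle are not part of the lineage's programme. RNA was not measured here. Titin, nebulin and alpha-actinin belong to the sarcomere, the repeating contractile unit. Ryanodine receptors release calcium from the sarcoplasmic reticulum, myosin heavy chains are the motors of the thick filament, and sarcoglycans hold the dystrophin complex in the muscle membrane.

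The promoters of 4 members are shown because these genes form the contrasts described below, the giant proteins titin and nebulin and the calcium channel paralogs RYR2 and RYR3. Dam methylates GATC, so this motif is in capitals where it occurs. The sequences run 5′ to 3′ from 250 bases before to 50 bases after the gene start and come from RefSeq on GRCh38.p14. They are TTN at chr2:178807374-178807673 and NEB at chr2:151734427-151734726, both on the minus strand, and RYR2 at chr1:237041934-237042233 and RYR3 at chr15:33310717-33311016, both on the plus strand.
TTN: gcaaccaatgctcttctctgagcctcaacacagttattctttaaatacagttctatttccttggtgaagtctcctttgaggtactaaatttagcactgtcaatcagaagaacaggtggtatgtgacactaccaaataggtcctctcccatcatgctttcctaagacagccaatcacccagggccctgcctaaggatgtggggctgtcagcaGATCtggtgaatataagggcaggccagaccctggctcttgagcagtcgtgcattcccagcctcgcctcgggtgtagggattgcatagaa
NEB: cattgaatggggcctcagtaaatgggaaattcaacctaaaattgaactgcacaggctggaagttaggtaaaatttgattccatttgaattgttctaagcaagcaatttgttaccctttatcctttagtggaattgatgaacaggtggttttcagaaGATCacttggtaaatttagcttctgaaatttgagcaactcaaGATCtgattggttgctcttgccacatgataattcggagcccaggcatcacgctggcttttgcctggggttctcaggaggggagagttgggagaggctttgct
RYR2: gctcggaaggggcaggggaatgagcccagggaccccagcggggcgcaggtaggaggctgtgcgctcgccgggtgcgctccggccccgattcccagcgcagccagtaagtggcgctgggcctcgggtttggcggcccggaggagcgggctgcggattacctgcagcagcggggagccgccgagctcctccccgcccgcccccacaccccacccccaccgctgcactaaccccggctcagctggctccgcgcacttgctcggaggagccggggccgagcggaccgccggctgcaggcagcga
RYR3: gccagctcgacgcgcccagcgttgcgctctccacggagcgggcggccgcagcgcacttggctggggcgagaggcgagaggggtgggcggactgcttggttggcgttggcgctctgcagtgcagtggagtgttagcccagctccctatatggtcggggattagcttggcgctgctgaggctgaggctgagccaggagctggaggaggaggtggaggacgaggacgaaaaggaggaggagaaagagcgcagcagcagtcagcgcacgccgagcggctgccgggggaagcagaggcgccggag

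The titin promoter holds 1 GATC motif and the nebulin promoter holds 2, whereas the promoters of RYR2 and RYR3 hold none. Of the other members matched in the promoter table, SGCD has 1 motif and ACTN2 and MYH1 have none. GATC is its own reverse complement, so both strands were searched together, and 41.7% of 35116 RefSeq promoters of this length hold it. The promoters of ACTN2, RYR2 and RYR3 were rich in G and C, at 80.3, 75.3 and 68.3%, with 45, 32 and 27 CG pairs. Those of SGCD, TTN, NEB and MYH1 had 55.3, 48.7, 42.3 and 36.3%, with 13, 3, 2 and 2 CG pairs, beside a median of 58.7% and 14 pairs over all promoters. RYR2 and RYR3, both GC-rich and without the motif, had 85.2 and 38.3% of the body in contact. TTN and NEB, both poorer in G and C, had 73.9 and 6.78%. The contact maps have a resolution of 100 kb and do not resolve a promoter from the rest of its bin.

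The members spanned nearly the whole range of lamina contact. RYR2 was in contact over 85.2% ± 21.4 of its body (SD, n = 118 cells), SGCD over 81.4% ± 30.8 and TTN over 73.9% ± 27.0. MYH1 with 38.6% ± 45.0, RYR3 with 38.3% ± 39.9 and ACTN2 with 30.9% ± 29.9 were intermediate. NEB had 6.78% ± 18.3 and MYH7 had 0.424% ± 4.60. The mean over all usable bins was 33.0%, with a median of 17.8%. Of the 32 body bins, 12 reached a contact frequency of 80%, or 37.5%, beside 15.1% of all usable bins. Intermediate frequencies, 20 to under 80%, were found in 14 body bins, beside 33.9% of all usable bins. The 12 frequent bins lay in RYR2, TTN and SGCD. Another 4 body bins were in contact in 5% or less of the cells, or 12.5%, beside 38.8% of all usable bins, and these lay in NEB and MYH7. The 139 flanking bins outside the bodies were close to the genome, with 22 bins at 80% or more and 52 at 5% or less, or 15.8 and 37.4%. Bins of 1 gene are neighbours and share their cells, so these counts describe 8 places and not 32 independent ones.

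**Figure D1:**
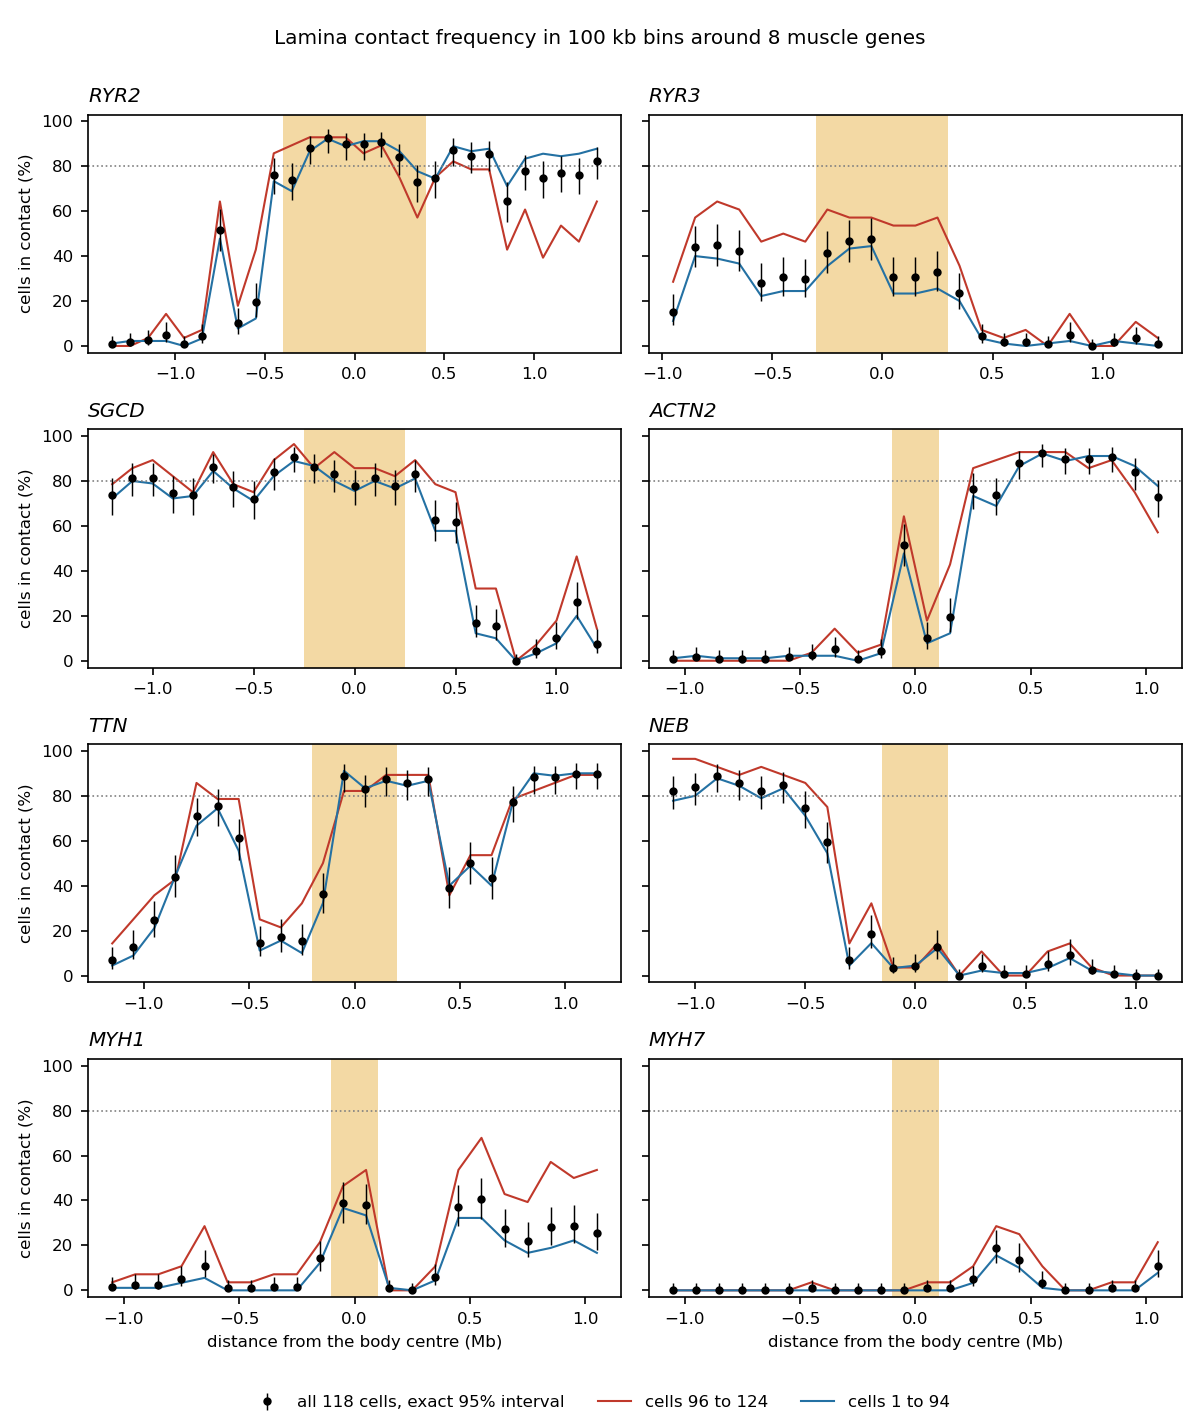
Contact frequency (percentage of cells, y axis) of each 100 kb bin against its distance from the centre of the gene body in Mb (x axis, lower hg19 coordinates to the left), for 8 genes. Points are all 118 cells with exact 95% intervals, red and blue lines are the cells numbered 96 to 124 and 1 to 94, shading marks the body, and the dotted line is at 80%. RYR2, SGCD and TTN reach 80% or more within the body, NEB and ACTN2 lie beside stretches at 80% or more, and MYH7 stays at 18.6% or less across its window.

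Neighbours in this order were often closer to each other than the spread between cells. RYR2 exceeded SGCD by 3.81 percentage points ± 37.7 (SD of the difference over cells), with RYR2 higher in 36 cells, SGCD higher in 47 and 35 cells equal. SGCD exceeded TTN by 7.42 points ± 37.0, in 61 of 118 cells against 27. MYH1 and RYR3 differed by 0.282 points ± 53.9 and RYR3 and ACTN2 by 7.34 points ± 44.2, both far within the spread. TTN exceeded MYH1 by 35.4 points ± 55.3, in 80 of 118 cells against 26, and ACTN2 exceeded NEB by 24.2 points ± 33.3, in 62 cells against 12. NEB exceeded MYH7 by 6.36 points ± 19.0, in 18 cells against 1, with 99 cells equal. The steps from TTN to MYH1 and from ACTN2 to NEB were the largest between neighbours, and both were smaller than their SD over single cells.

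The bins at the ends of a body reach past the gene. Of the bin at the lower end of TTN, 10 kb lie in the gene, and the bins of MYH1 and MYH7 hold 10 to 30 kb of theirs. The 2 bins of ACTN2 hold 60 and 30 kb of the gene. When the bodies were limited to bins at least 50% inside the gene, or to the bin with the largest overlap, the mean of TTN was 86.4% and that of ACTN2 51.7%, and TTN then stood above RYR2 and SGCD.

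TTN encodes titin, the giant spring protein that runs from the Z-disc to the M-line of the sarcomere. Its body on chromosome 2 from 179300001 to 179700000 lay in a short and steep island of contact. The 3 bins from 179400001 to 179700000 were in contact in 105, 98 and 103 of the 118 cells, or 89.0, 83.1 and 87.3% (exact 95% intervals 81.9 to 94.0, 75.0 to 89.3 and 79.9 to 92.7%). The bin at the 3′ end, from 179300001 to 179400000, was in contact in 43 cells, or 36.4%. In 62 cells the bin from 179400001 to 179500000 was in contact and this 3′ bin was not, and the reverse was seen in 0 cells. TTN is transcribed towards lower coordinates, so the 5′ end lay in the frequent part. The 3′ bin holds 10 kb of the gene, so most of it lies beyond TTN. The bin next to it, wholly inside the gene, had 89.0%.

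The island held 5 bins at 80% or more, from 179400001 to 179900000, with a mean frequency of 86.4%. Beyond it the next bin fell to 39.0%, and 57 cells were in contact before this edge and not after it, against 0 cells after it only. The lower flank averaged 34.2% ± 23.7 (SD, n = 118), with a second block of 61.0 to 75.4% from 178700001 to 179000000 and 3 bins of 14.4 to 16.9% between it and TTN. The higher flank averaged 73.8% ± 24.1 and returned to 88.1 to 89.8% from 180300001 onwards. The body exceeded the lower flank by 39.7 points ± 24.4, in 108 of 118 cells, and differed from the higher flank by 0.127 points ± 20.2. The neighbouring genes in RefSeq are PLEKHA3 at lower and CCDC141 at higher coordinates.

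Contact runs, meaning consecutive bins in contact in a cell, were short at TTN. In the 98 cells with contact at the bin from 179500001 to 179600000, the run had a median of 0.6 Mb and ranged from 0.2 to 3.3 Mb, and 25 runs reached 1 Mb. In 53 of these cells the run began at 179400001, and in 38 it ended at 179900000. Every bin of the body was in contact in 41 cells and no bin in 6 cells. These 6 cells were numbered 1, 12, 60, 66, 100 and 103. In cells 1, 12 and 66 a ratio of 1 stood for under 3 reads in the median bin. Cell 100 was the deepest of all with 385661 reads.

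NEB encodes nebulin, which lies along the thin filament of skeletal muscle, and sits on the same chromosome. Its body from 152300001 to 152600000 was rarely in contact. The 3 bins were in contact in 4, 5 and 15 of 118 cells, or 3.39, 4.24 and 12.7% (exact intervals 0.931 to 8.45, 1.39 to 9.61 and 7.29 to 20.1%). The highest value was at the 5′ end. No bin was in contact in 100 cells, and every bin was in 2, cells 19 and 79. The body held 515 reads over all cells, and 43 cells had none, although a ratio of 1 over the body would take 18.2 reads in the median cell.

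A frequent domain ended just before the gene. The 8 bins from 151300001 to 152100000 had 59.3 to 89.0%, and the next bin, from 152100001 to 152200000, had 6.78%. Across this edge 64 cells were in contact on the lower side only, 2 on the higher side only and 6 on both. The lower flank averaged 66.7% ± 23.7 and the higher flank 2.37% ± 6.88. The body minus lower flank difference was -59.9 points ± 27.4, below 0 in 111 of 118 cells. The nearest bin at 80% or more, from 151800001 to 151900000 with 84.7%, was 0.4 Mb from the body. TTN exceeded NEB by 67.2 points ± 31.7 (SD over cells), in 107 of 118 cells against 3, and by 68.8 points in cells 96 to 124 and 66.7 in cells 1 to 94.

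ACTN2 encodes alpha-actinin-2, which crosslinks actin filaments at the Z-disc. It lies on chromosome 1 from 236800001 to 237000000, at lower coordinates than RYR2, with MTR and MT1HL1 between them. The bin with its 5′ part, from 236800001 to 236900000, was in contact in 61 of 118 cells, or 51.7% (42.3 to 61.0%). The bin with its 3′ part was in contact in 12 cells, or 10.2% (5.37 to 17.1%). This bin holds 30 kb of the gene, against 60 kb in the 5′ bin, so most of it lies beyond ACTN2. In 54 cells the 5′ bin was in contact and the 3′ bin was not, in 5 cells the reverse held, and in 7 cells both were. The bin below the gene, from 236700001 to 236800000, had 4.24%, and 56 cells were in contact at the 5′ bin and not there, against 0 in the other direction. ACTN2 thus formed a single raised bin between rarely contacted ones, with a mean ratio of 1.19 at the 5′ bin beside 0.37 at the 3′ bin. Its lower flank, towards HEATR1, averaged 1.95% ± 7.87 and its higher flank, which holds RYR2, 77.7% ± 20.7. Cells 96 to 124 averaged 41.1% over the body and cells 1 to 94 averaged 27.8%.

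RYR2 encodes the ryanodine receptor of heart muscle, the channel that releases calcium for contraction. Its body on chromosome 1 from 237200001 to 238000000 was the most contacted member, with 8 bins at 72.9 to 92.4%. The 6 inner bins, from 237300001 to 237900000, were in contact in 104, 109, 106, 106, 107 and 99 of 118 cells, and the outer bins in 87 at the 5′ end and 86 at the 3′ end. The highest bin, from 237400001 to 237500000 with 92.4% (86.0 to 96.5%), exceeded 99.1% of all usable bins. The mean ratio over the body was 2.59, and ranged from 0.0758 to 9.58 between cells with a median of 2.59. Chromosome 1 averaged 26.0%, and 94.7% of its usable bins were below the mean of RYR2.

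The frequent domain began just before the 5′ end. The bin from 237000001 to 237100000 had 19.5% and the next one 76.3%, with 67 cells in contact on the RYR2 side only and 0 on the other side only. From there a stretch of 23 bins at 50% or more ran to 239400000, or 2.3 Mb with a mean of 78.3%. The lower flank averaged 17.3% ± 13.5 and the higher flank 78.5% ± 28.1. The body exceeded the lower flank in 116 of 118 cells, by 67.9 points ± 20.4, and exceeded the higher flank by 6.69 points ± 25.3, in 39 cells against 43 with the flank higher. ZP4 is the next gene on that side.

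In the 106 cells with contact at the middle bin, the run through RYR2 had a median of 1.3 Mb and reached 2.7 Mb, and 48 runs began at 237100001. The ends were less fixed, as the most common end was shared by 18 cells. Every bin of RYR2 was in contact in 55 cells and no bin in 2, cells 12 and 115. Cell 12 was shallow, with 35947 reads, whereas cell 115 had 117252. Both outer bins were in contact in 67 cells, the 5′ bin alone in 20 and the 3′ bin alone in 19.

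The 3′ side of RYR2 was less often in contact in cells 96 to 124 than in cells 1 to 94. At the 3′ bin 57.1% of cells 96 to 124 and 77.8% of cells 1 to 94 were in contact, and at the 5′ bin 89.3 and 68.9%. The higher flank averaged 62.1% in cells 96 to 124 and 83.6% in cells 1 to 94, with 39.3 and 85.6% at the bin from 238600001 to 238700000. Over the whole body the means were 84.4 and 85.4%. The cells numbered 96 to 124 had the larger contact share of the genome, and the part of the numbering in this difference was not tested.

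ACTN2 and RYR2 lie 0.2 Mb apart from body to body, and RYR2 exceeded ACTN2 by 54.2 points ± 30.0, in 109 of 118 cells against 3. This was 43.3 points over cells 96 to 124 and 57.6 over cells 1 to 94. With at least 50% of the bins of a body taken as contact of the gene, ACTN2 was in contact in 66 cells, and RYR2 was in contact in all 66 of them. For ACTN2 this limit is met by 1 of its 2 bins, and both bins were in contact in 7 cells. RYR2 alone was in contact in 43 cells, and neither gene in 9. Their correlation over cells was 0.200 after regression on each cell's contact share (n = 118 cells, which share library and depth effects). This was the highest of the 21 pairs of members, with 0.169 over cells 96 to 124 and 0.221 over cells 1 to 94. The 5′ bin of ACTN2 had a correlation of 0.254 with the body of RYR2. The 2 bins between this bin and the RYR2 domain, of which the first is the 3′ bin of ACTN2, had -0.0201 and 0.00751. These 2 bins were in contact in 12 and 23 of 118 cells and RYR2 in 109, which leaves little room for a correlation.

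RYR3 encodes a ryanodine receptor found in many tissues, including brain and muscle. Its body on chromosome 15 from 33600001 to 34200000 was contacted at intermediate frequency, with 41.5, 46.6, 47.5, 30.5, 30.5 and 33.1% from the 5′ to the 3′ end. These were 49, 55, 56, 36, 36 and 39 of 118 cells. Chromosome 15 averaged 26.0%, and its nearest bin at 80% or more lay 11.2 Mb away. No bin was in contact in 50 cells, every bin in 21 and some bins in 47. Both end bins were in contact in 32 cells and neither in 62, and 24 cells had only 1 of the ends, 17 the 5′ end and 7 the 3′ end. In the 36 cells with contact at the bin from 33900001 to 34000000, the run had a median of 1.05 Mb, from 0.1 to 1.5 Mb, and 19 runs reached 1 Mb.

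The lower flank of RYR3, towards FMN1, was in contact together with the gene. Its 7 usable bins had 15.3 to 44.9%, with a mean of 33.5% ± 37.1 (50.5% over cells 96 to 124 and 28.3% over cells 1 to 94), and the body exceeded them by 4.74 points ± 19.9. The 3 bins beyond them had no usable value. On the other side, towards CHRM5, contact ended within 0.2 Mb, with 23.7% in the bin next to the body and 4.24% in the one after it, and the higher flank averaged 4.32% ± 8.00. The correlations of the lower flank bins with the body over cells were 0.472 to 0.801, and this maximum was the highest found for any member. Cells 96 to 124 averaged 56.5% over the body and cells 1 to 94 averaged 32.6%, the largest difference between the sets among the 8 members, at 24.0 points. The part of this split in the correlations over all cells was not tested. RYR2 exceeded RYR3 by 46.9 points ± 44.6, in 93 of 118 cells against 16. Cells 96 to 124 gave a difference of 27.8 points and cells 1 to 94 one of 52.8.

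MYH1 encodes a fast myosin heavy chain of skeletal muscle and lies on chromosome 17 in a cluster of myosin genes between MYH4 and MYH2. Its 2 bins from 10300001 to 10500000 were in contact in 46 and 45 of 118 cells, or 39.0 and 38.1% (30.1 to 48.4 and 29.4 to 47.5%). Chromosome 17 averaged 9.45% and only 0.259% of its bins reached 80%, so that 89.5% of its bins lay below the mean of MYH1. The MYH cluster also covers parts of the bins on both sides, which had 14.4% at the lower and 0.847% at the higher end. Across the higher edge 44 cells were in contact on the MYH1 side only and 0 on the other side only. Every bin of MYH1 was in contact in 37 cells, no bin in 64 and 1 of the bins in 17. A body of 2 bins leaves a single state between all and none, so these counts do not compare with those of longer bodies. The runs were short, with a median of 0.2 Mb and a maximum of 0.4 Mb, and 44 of 45 runs ended at 10500000.

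A second block of 22.0 to 40.7% lay in the higher flank, from 10800001 to 11500000, beyond 3 bins of 0 to 5.93%. This block was in contact in the same cells as MYH1 more often than in the others. Its bin from 11400001 to 11500000, 0.9 Mb from the body, was in contact in 29 of the 54 cells with MYH1 in contact, or 53.7%, and in 1 of the 64 other cells, or 1.56%. This bin was picked as the one with the highest correlation with the body at 0.3 Mb or more, at 0.648, and the other 6 bins of the block had 0.547 to 0.631. Cells 96 to 124 averaged 50.0% over the body and cells 1 to 94 averaged 35.0%, and the higher flank 37.5 and 16.7%. The part of this split in the correlation over all cells was not tested.

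MYH7 encodes the slow myosin heavy chain of heart and slow skeletal fibres and lies on chromosome 14 beside MYH6. Its body from 23800001 to 24000000 was in contact in 0 and 1 of 118 cells. For the bin with 0 contacts, the limit of 3 counts is a frequency of 2.54% and the exact upper bound is 3.08%. The single contact was in cell 121, where the bin from 23900001 to 24000000 had a ratio of 1.17 from 9 reads, against 7.71 reads at a ratio of 1. Over all cells the body held 96 reads, and 88 cells had none, although a ratio of 1 would take 13.5 reads in the median cell. The lower flank had 0.0847% ± 0.921, with a single cell in contact at 1 of its 10 bins. The higher flank, towards NGDN, averaged 5.42% ± 10.0 with at most 18.6%, at the bin from 24200001 to 24300000. Its mean was 10.7% over cells 96 to 124 and 3.78% over cells 1 to 94. Chromosome 14 averaged 31.5%, and the nearest bin at 80% or more was 2.9 Mb away. MYH1 was above MYH7 in 54 of 118 cells and MYH7 above MYH1 in 0, a difference of MYH7 minus MYH1 of -38.1 points ± 44.7. It was -48.2 points over cells 96 to 124 and -35.0 over cells 1 to 94.

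SGCD encodes delta-sarcoglycan, a part of the dystrophin complex that links the cytoskeleton to the matrix. Its body on chromosome 5 from 155700001 to 156200000 had 5 bins at 86.4, 83.1, 78.0, 81.4 and 78.0%, or 102, 98, 92, 96 and 92 of 118 cells from the 5′ to the 3′ end. Every bin was in contact in 75 cells, more than for any other member. Such counts depend on the number of bins, which is 5 here and 8 for RYR2. No bin was in contact in 8 cells, and 35 cells had a part of the body in contact. The cells without contact included cells 52 and 124 with 146790 and 168965 reads. They also included the shallow cells 1, 4 and 69 with 51908, 31503 and 53569 reads. Runs through the middle bin had a median of 1.8 Mb, and 73 of 92 runs reached 1 Mb.

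The domain around SGCD ran from 154500001 to 156500000, 20 bins at 50% or more with a mean of 77.3%, and ended 0.3 Mb beyond the gene. At that edge the frequency fell to 16.9%, against 61.9% in the bin before it, with 55 cells in contact on the inner side only and 2 on the outer side only. The lower flank averaged 79.5% ± 29.2 and the higher flank 28.8% ± 19.3, and the body exceeded the higher flank by 52.5 points ± 23.1, in 109 of 118 cells. All 10 lower flank bins followed the body over cells, with correlations of 0.506 to 0.689. The bin from 155300001 to 155400000 was picked for the highest of these at 0.3 Mb or more. When SGCD was in contact, this bin was too in 89 of 98 cells, or 90.8%, and when it was not, in 2 of 20, or 10.0%. Cells 96 to 124 averaged 86.4% over the body and cells 1 to 94 averaged 79.8%.

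**Figure D2:**
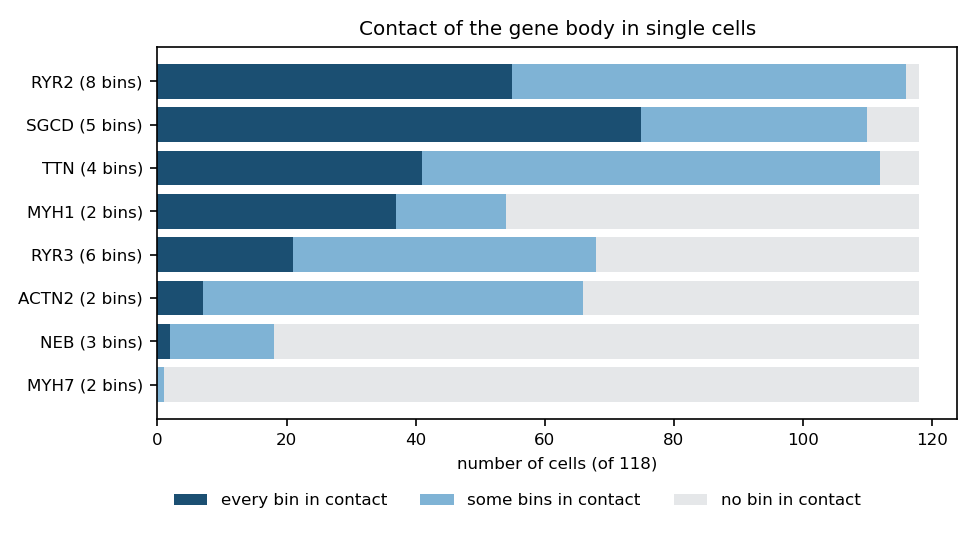
Number of cells (x axis, of 118) in which every bin, some bins or no bin of each gene body was in contact, with genes ordered by mean contact. SGCD had every bin in contact in 75 cells, MYH1 was split between 37 cells with every bin and 64 with none, and MYH7 had a contact in 1 cell.

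**Figure D3:**
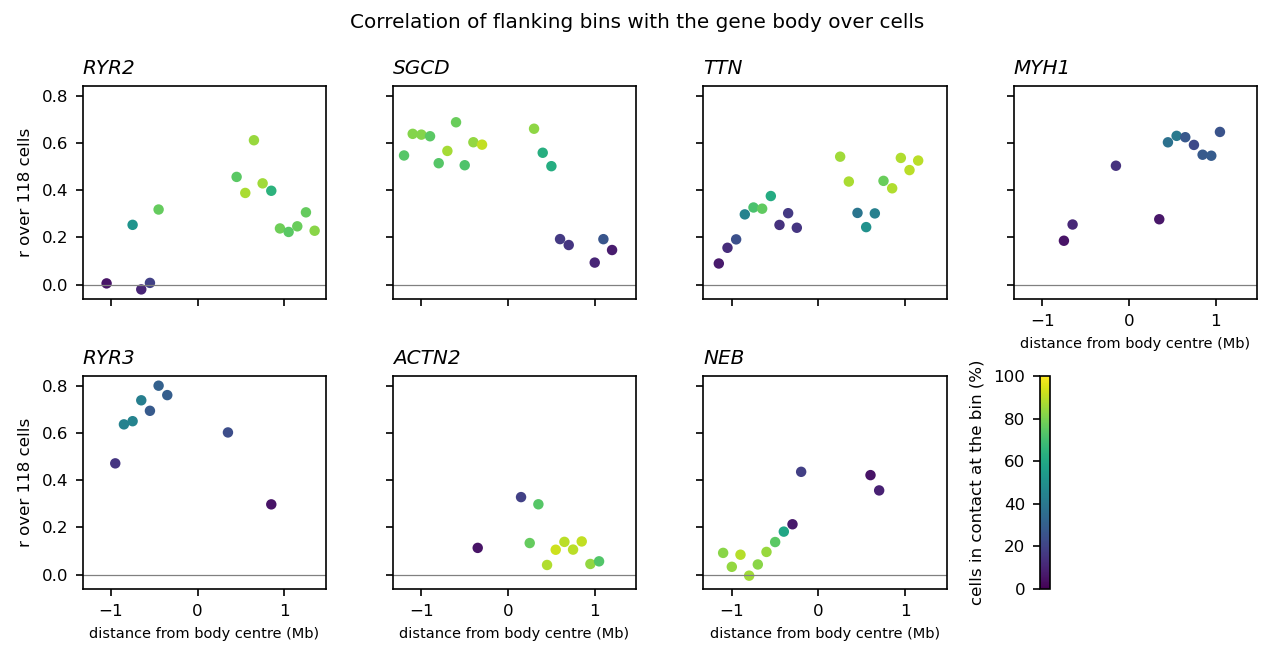
Correlation over 118 cells (y axis, contact share of the cell removed) of each flanking bin with the share of the gene body in contact, against distance from the body centre in Mb (x axis), for the 7 members other than MYH7 and for bins with a frequency of 5% or more. Colour gives the contact frequency of the bin. The flanks of RYR3, SGCD and MYH1 reach 0.801, 0.689 and 0.648, ACTN2 stays at 0.329 or less, and the frequent bins beside NEB stay at 0.182 or less.

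The steepest step was picked in each window, and this choice itself favours few cells in contact on the rarely contacted side alone. At the edges of TTN, RYR2 and MYH1 with the steepest step, no cell was in contact on the rarely contacted side alone. The steepest step beside ACTN2 is the same edge as that of RYR2. At NEB, SGCD and MYH7 2 cells were at each, and at RYR3 1 cell. A count of 0 of 118 cells has an exact upper bound of 3.08%, so these counts do not tell the edges apart. The 8 bins at 59.3% or more beside NEB had correlations of -0.00423 to 0.182 with the body over cells, but 100 cells had no contact at NEB, which leaves little room for a correlation. At TTN the lower block at 178700001 to 179000000 had 0.322 to 0.376, and the 4 bins of the higher flank from 180300001 had 0.409 to 0.537.

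Over cells, members on different chromosomes showed little common behaviour. The 19 such pairs of 7 members, MYH7 left out because only 1 cell had it in contact, had correlations of -0.233 to 0.166 with a mean of -0.0292, and 7 were above 0. The points are single cells, which share depth and library effects, and no p-value is given. The lowest was RYR2 with SGCD, both in contact in 90 cells, RYR2 alone in 19, SGCD alone in 8 and neither in 1. This pair had -0.0360 over cells 96 to 124, -0.339 over cells 1 to 94 and -0.00812 without the removal of the contact share. Without the removal of the contact share, 13 of the 19 were above 0 and the mean was 0.0579. TTN and NEB, on chromosome 2, had 0.0849. All 4 cells with NEB in contact also had TTN in contact, as did 101 cells without NEB. The most similar member was ACTN2 for RYR2 and for NEB, RYR3 for MYH1 and SGCD, MYH1 for RYR3, NEB for TTN and RYR2 for ACTN2, and the highest of these correlations was 0.200.

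The selection of these genes at the lamina varied between cells. With at least 50% of a body in contact, a cell had 4.14 ± 1.29 of the 8 genes in contact (SD, n = 118), from 1 to 6. Counts of 1, 2, 3, 4, 5 and 6 genes were seen in 2, 12, 23, 32, 29 and 20 cells, and no cell had 0, 7 or 8. There were 30 different combinations. The most common, in 16 cells, was TTN, RYR2, ACTN2, RYR3, MYH1 and SGCD, and the next, in 15 cells, was TTN, RYR2 and SGCD alone. These counts depend on the limit, since ACTN2, MYH1 and MYH7 have 2 bins and count as in contact from 1 of them. With more than 50% of the body required, a limit added after the data were seen, the combination of 6 genes was found in 1 cell and TTN, RYR2 and SGCD alone in 30. The number rose with the contact share of the cell and with its reads, with correlations of 0.661 and 0.553 over 118 cells. Contact needs reads, so these relations are partly built in. Cells 96 to 124 had 4.75 ± 1.04 genes and cells 1 to 94 had 3.94 ± 1.31, without matching of the sets for depth. Cells 1 and 4, with 1 gene each, had 51908 and 31503 reads.

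**Figure D4:**
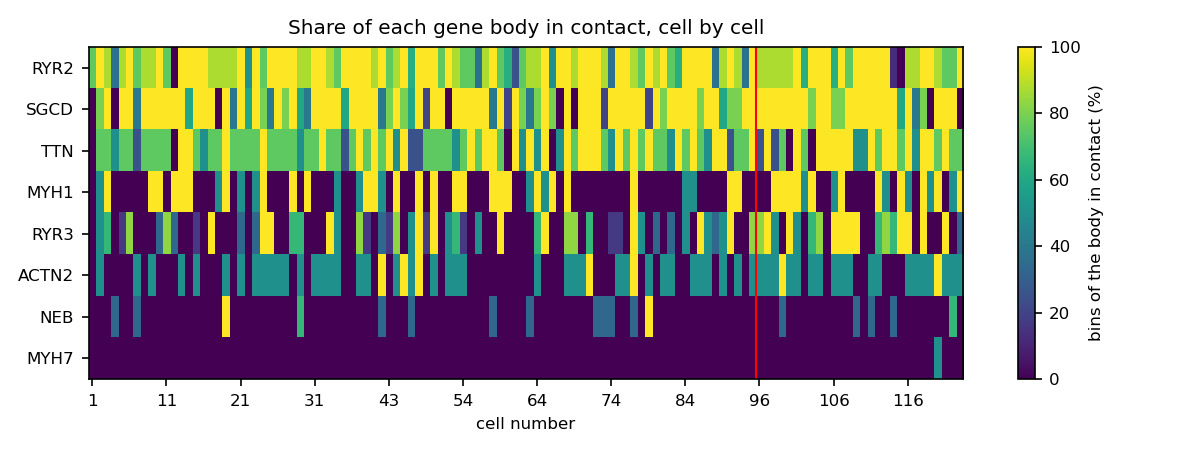
Share of the bins of each gene body in contact (colour, 0 to 100%) for 118 cells in the order of their number (x axis), with genes ordered by mean contact. The red line separates cells 1 to 94 on the left from cells 96 to 124. RYR2, SGCD and TTN are in contact in most cells, NEB in few, and RYR3 averages 56.5% to the right of the line and 32.6% to the left.

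**Figure D5:**
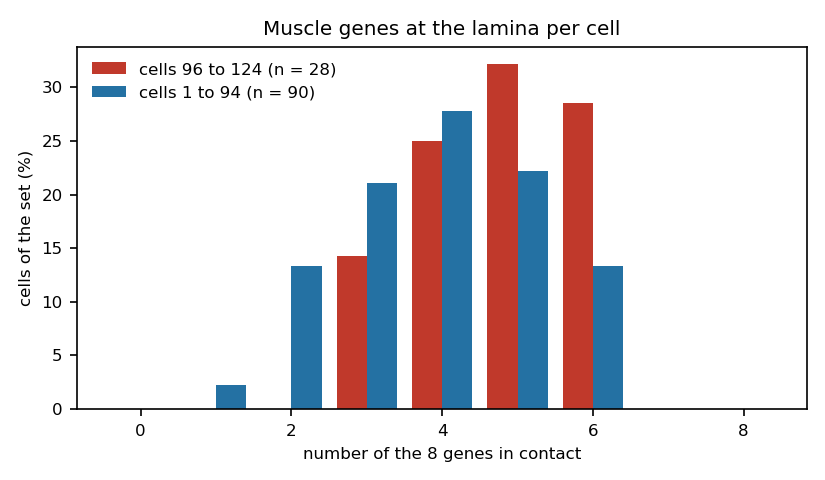
Percentage of cells in each set (y axis) by the number of the 8 genes with at least 50% of the body in contact (x axis), for 28 cells numbered 96 to 124 and 90 cells numbered 1 to 94. All 28 cells of the first set hold 3 to 6 genes, and 14 cells of the second hold 1 or 2. The sets were not matched for depth, and cells with fewer than 80890 reads occur only in the second.

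Shallow cells had less contact at 6 of the 8 members. In the 14 cells where a ratio of 1 stood for under 3 reads, RYR2, SGCD and TTN had 69.6, 50.0 and 55.4% of the body in contact, against 87.3, 85.6 and 76.4% in the other 104 cells. ACTN2 had 10.7 and 33.7%, RYR3 20.2 and 40.7%, and MYH1 25.0 and 40.4%. NEB had 9.52 and 6.41%, and MYH7 0.00 and 0.481%, which is 1 contact in 1 cell.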

How the data were processed

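Single-cell DamID of Dam-LaminB1 was analysed from a table deposited by the authors that holds a ratio of observed to expected reads per 100 kb bin and cell. How the expected part was made, and why 3792 of 30376 bins lack a value, are not stated in the labels. Per the submitters' processing notes, cutadapt, Bowtie2 2.1.0 and the build hg19 were used. No profile of unfused Dam was used here, and contact was not corrected here for accessibility. Whether the deposited ratio includes either is not stated in the labels.

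Usable bins had numbers for all cells and were not 0 throughout. Whole reads were recovered by dividing out a step per bin and a step per cell, and 100% of 1697706 values above 0 came out whole within 0.02 reads. The step of a bin was chosen so that its values come out whole, so this share alone is no independent check. The recovery was tested on simulated data. Reads carry no molecular identifiers, so intervals cover counting error only. No 2 cells held the same values, the highest correlation of reads between 2 cells over bins being 0.800.

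Member intervals are those of the rule, in hg19. Gene names of neighbours, strands and promoters came from RefSeq on GRCh38.p14, which was used for names, order and sequence only. All 8 genes were found there, 7 of them with a promoter. Other muscle genes were not analysed here because no annotation of hg19 was at hand. The genes described are all 8 members of the rule. The members and lists were chosen with earlier results of these data known. No test was made, since the labels give a single group. Contact values, depth, cell sets, bin overlap and flank width were varied. Computations used Python 3.11.15, numpy 2.4.6, pandas 2.3.3, scipy 1.17.1 and matplotlib 3.10.9.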

Additional observations from a re-analysis of the deposited data

How the results depend on the processing

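Under 14 alternatives, 27 results gave 214 values. Of these, 199 remained within 1 SD between cells (for correlations within 0.1, for counts of bins within 1.5 times) and 15 moved. This criterion is wide, because the SD is the spread over single cells and not the uncertainty of a mean. MYH1, at 38.6%, counted as unmoved with 14.0% at a contact value of 2 and 66.9% with any read. TTN, at 73.9%, counted as unmoved with 50.0% at a contact value of 2. At a contact value of 2, no bin of the bodies or flanks reached 80% (0 and 0), RYR2 had 63.2% and a cell held 2.69 genes. At a contact value of 0.5, 37 of the 139 flanking bins were at 80% or more, beside 26.8% of all usable bins. A limit of 90% left 2 bins in the bodies and 1 in the flanks. The share of body bins was 50.0, 0 and 6.25% at a contact value of 0.5, a contact value of 2 and a limit of 90%, beside 26.8, 0.0946 and 1.94% of all usable bins. At the main limit, flanks of 0.5 and 2 Mb held 10 and 42 bins at 80% or more. The number of bins in the flanks changes with their width, so these counts do not compare as shares. Counting any read as contact gave 69.9% for ACTN2, 37.3% for NEB and 17.4% for MYH7. With flanks of 2 Mb, the body minus flank difference was -50.7 points for NEB and -19.4 for MYH7. Without removal of the contact share, the correlation of RYR2 and ACTN2 was 0.355. Within these criteria 5 values changed sign: the difference of ACTN2 from its flanks, -8.90 points, was 3.01 at a contact value of 0.5 and 11.9 with bins at least 50% inside. SGCD minus RYR2, -3.81, was 2.05 in cells 96 to 124. The mean correlation between chromosomes was 0.0579 without the removal and 0.00223 from mean ratios. More than 50% of the body, in place of at least 50%, is a choice added after the data were seen and gave 3.25 genes, within 1 SD. RYR2, SGCD and TTN were the highest members and NEB and MYH7 the lowest under all 8 alternatives for the bodies, thinning to 50000 reads in 109 cells included. Differences between members and from flanks were taken within each cell. No comparison of groups was possible because there is a single group.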
